A study of Mus musculus with 6 samples.

Results

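The 37 genes described here encode the globins, the enzymes of heme synthesis, the red cell membrane and the regulators of erythroid maturation. They were taken by gene name from a table of 17832 genes, and 36 of the 37 were found in it; Ahsp, the chaperone of free alpha globin, was not analysed here. The table covers 6 libraries of CD4+ or CD8+ cells sorted by flow cytometry from spleens of C57BL/6 mice. Each mouse had received angiotensin II, a peptide hormone that raises blood pressure, from an osmotic pump under the skin, and this treatment is shared by both groups. The groups are 3 CD4 libraries, labelled 385, 393 and 395, and 3 CD8 libraries, labelled 389, 395 and 387. The sources used here give no dose or duration of the infusion, no age or sex of the mice and no further gates of the sort. Untreated mice were not analysed here, so no value below addresses the effect of angiotensin II.

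Erythroid cells build hemoglobin from alpha and beta globin chains that each hold a heme. Heme is assembled from glycine and succinyl-CoA by enzymes that work in turn in the mitochondrion, the cytosol and the mitochondrion again, and iron for its last step enters through the transferrin receptor and the mitochondrial carrier mitoferrin. The transcription factors GATA1, TAL1 and KLF1 drive these genes, and late in maturation the cell lays down its spectrin skeleton and loses its nucleus. In mice the spleen is a site of red cell formation, and its red pulp also removes old red cells.

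Recovered reads ran from 10264246 in CD4 393 to 14628599 in CD8 387. Levels are the authors' normalised reads, which are gene read counts divided by 1 size factor per library, so 1 read is worth 0.839 to 1.16 normalised reads. Each library had the coreceptor transcripts of its label: Cd4 was at 5260.1 ± 1130.4 (SD, n = 3) in CD4 and 111 ± 64.2 in CD8, and Cd8a at 24.7 ± 15.3 and 7327 ± 3139. The labels mark separate samples only through their numbers, so the p-values measure the spread between these libraries, and CD4 395 and CD8 395 may come from 1 mouse.

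Erythroid transcripts were abundant in every library of sorted CD4+ and CD8+ cells. The 36 genes held 0.655% of the recovered reads of CD4 393 (exact binomial 95% interval 0.651 to 0.660) and 1.85% of CD8 389 (1.84 to 1.85), with the other libraries between. Such intervals cover counting error only. Every one of the 36 genes passed the filter of 10 normalised reads in at least 3 libraries. Their means over the 6 libraries ran from 431 for Hba-a2 to 20655 for Car2. Summed over the 36 genes, the level was 168824, 74971 and 120725 normalised reads in CD4 385, 393 and 395, and 231912, 119515 and 127655 in CD8 389, 395 and 387. CD8 389 was the highest and CD4 393 the lowest, and the groups overlapped. In such bulk samples, fewer cells of a type and less RNA per cell cannot be told apart.

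The genes varied together across libraries, in an order that cut across the groups. Of the 36 genes, 34 were highest in CD8 389, where 30.4% of all 13877 genes tested had their highest level, and CD4 385 came second for 32 of the 36. Of the same genes, 29 were lowest in CD4 393, where 28.7% of all genes tested were lowest, and 6 were lowest in CD4 395, against 13.6% of all genes. Hbb-bs and Hba-a2 were highest in CD8 395, as were 17.7% of all genes, and Slc25a37 was lowest there, as were 15.2%. The ratio of the highest to the lowest library had a median of 3.35 over the 36 genes and ran from 1.78 for Ppox to 5.02 for Rhag. Over all genes tested the median was 1.87, and 20.3% reached the median of the erythroid genes. Among the 6275 genes with a mean at or above that of Hba-a2, the lowest erythroid gene, 6.37% did so.

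**Figure D1:**
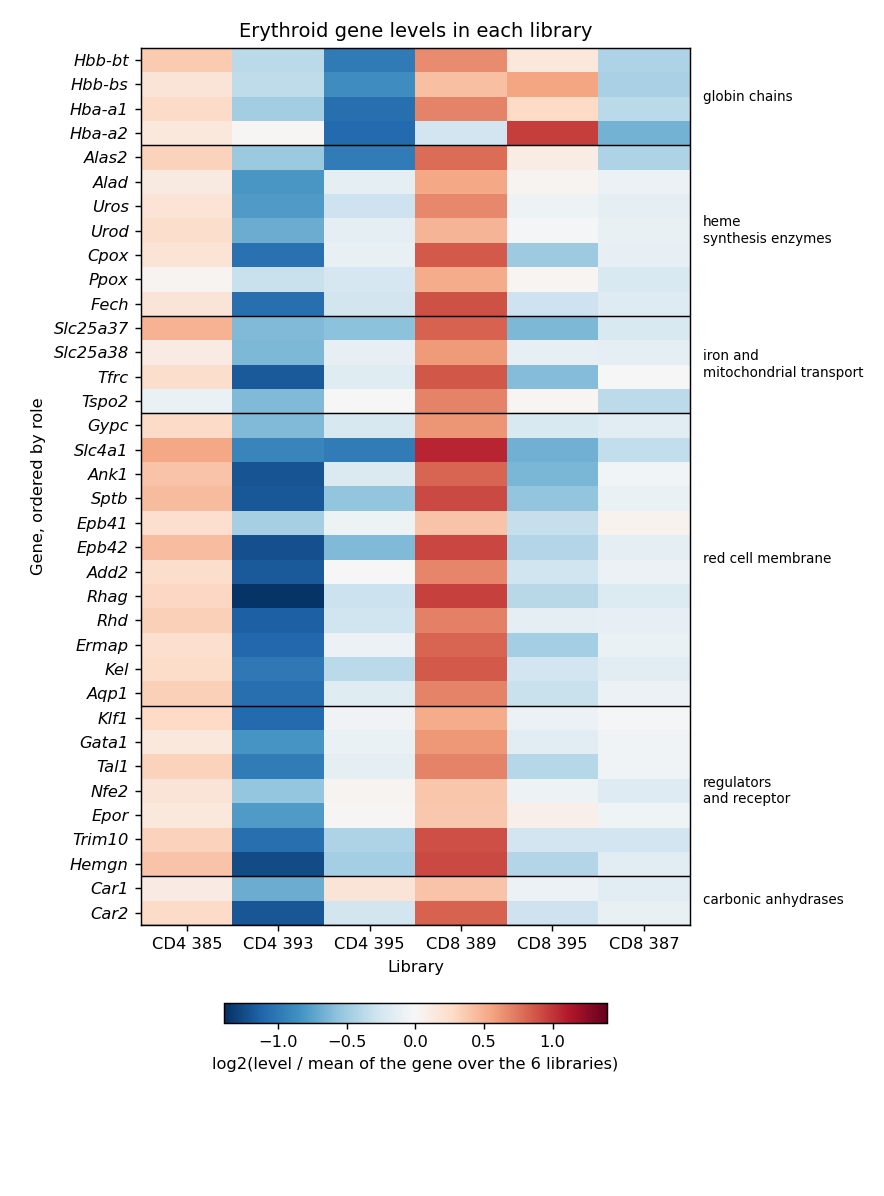
Level of each of the 36 erythroid genes (rows, grouped by role) in each of the 6 libraries (columns), as log2 of the level over the gene's mean. CD8 389 is red for all genes but Hba-a2, CD4 393 is the bluest library for 29 genes, and CD4 395 is bluest for the globins, Alas2 and Slc4a1.

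The globins were present in all libraries but, as counted, did not dominate the erythroid transcripts. Their counts depend on how reads that match both copies of a globin gene were treated, which the sources used here do not say. Hbb-bs, an adult beta globin gene, had 5068, 3519 and 2453 normalised reads in CD4 385, 393 and 395, and 6026, 6580.0 and 3277 in CD8 389, 395 and 387. Hba-a1, an alpha globin gene, had 4369, 2588 and 1751 in the CD4 libraries and 5858, 4416 and 2787 in the CD8 libraries, in the same order. Both were lowest in CD4 395, both were high in CD4 385, CD8 389 and CD8 395, and the groups overlapped. Hbb-bt, the second adult beta globin gene, had 2120.4, 1265 and 827 in the CD4 libraries and 2596, 1818 and 1218 in the CD8 libraries, in the same order, and Hba-a2, the second alpha gene, had 476, 435 and 203 in the CD4 libraries and 358, 840.2 and 273 in the CD8 libraries, in the same order. Hba-a2 and Hbb-bs were highest in CD8 395, and Hba-a2 alone of the 4 had a level in CD8 389 below its mean. The 4 genes together held between 0.0437% of the reads, in CD4 395 (95% interval 0.0424 to 0.0449), and 0.118%, in CD8 389 (0.116 to 0.120).

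The gene copies within each pair are nearly the same in sequence, so their split is uncertain. In the GENCODE M21 transcripts (GRCm38), the coding sequences of Hba-a1 and Hba-a2 are 429 bases long and differ by C381T, and those of Hbb-bs and Hbb-bt are 444 bases long and differ by C417T, with positions counted from 1 at the A of the start codon and the first-named gene's base first. Of all stretches of 50 bases in the Hba-a1 transcript, 67.5% also occur in the Hba-a2 transcript, and 65.8% of those of Hbb-bs occur in Hbb-bt. The 60 coding bases around each difference are shown because the differing base is all that separates the copies within the coding sequence, with the differing base in capitals.
Hba-a1, chromosome 11, coding bases 351 to 410: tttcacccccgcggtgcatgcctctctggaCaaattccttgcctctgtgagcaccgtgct
Hba-a2, chromosome 11, coding bases 351 to 410: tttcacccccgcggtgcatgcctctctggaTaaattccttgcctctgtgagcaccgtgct
Hbb-bs, chromosome 7, coding bases 385 to 444: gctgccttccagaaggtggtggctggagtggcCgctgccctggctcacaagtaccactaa
Hbb-bt, chromosome 7, coding bases 385 to 444: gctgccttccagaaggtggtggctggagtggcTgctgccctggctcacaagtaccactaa

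The sources used here do not say how the authors' counting treated reads that match both copies. As counted, the reads of Hba-a1 over those of Hba-a2 were lowest in CD8 395, at 5.26 (95% counting interval 4.85 to 5.70), next in CD4 393 at 5.95 (95% counting interval 5.35 to 6.64), and highest in CD8 389, at 16.4 (95% counting interval 14.8 to 18.2). The intervals of CD8 389 and of each other library do not overlap, so the split differed beyond counting error. For Hbb-bs over Hbb-bt the ratio ran from 2.32 (95% counting interval 2.22 to 2.43) in CD8 389 to 3.62 (95% counting interval 3.42 to 3.83) in CD8 395. In both pairs CD8 395 and CD8 389 stood at opposite ends.

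The 7 heme synthesis enzymes were present in every library. Alas2, the erythroid enzyme of the first and rate-limiting step, had 1146, 636 and 465 normalised reads in CD4 385, 393 and 395, and 1575, 983 and 679.7 in CD8 389, 395 and 387. Like the globins it was lowest in CD4 395, which held 465 against 636 in CD4 393. The next enzymes did not share that order: Alad, which joins the products of the first step into porphobilinogen, had 2614, 1355 and 2171 in the CD4 libraries and 3489, 2449.8 and 2265 in the CD8 libraries, in the same order, so CD4 393 was lowest and CD4 395 well above it. Cpox, which makes protoporphyrinogen, had 5263, 2234 and 4303 in the CD4 libraries and 8385, 3250.5 and 4255 in the CD8 libraries, in the same order. Fech, which inserts iron into protoporphyrin, had 3235, 1371 and 2389 in the CD4 libraries and 5284, 2331 and 2514 in the CD8 libraries, in the same order. CD8 389 was highest and CD4 393 lowest for both. Uros and Urod, which close the porphyrin ring and trim its side chains, spanned ratios of highest to lowest of 2.77 and 2.24 with the same libraries at the ends. Ppox, the enzyme before Fech, had 2233, 1757 and 1856 in the CD4 libraries and 3130.1, 2229 and 1875 in the CD8 libraries, in the same order. It had the narrowest range of the 36 genes, and CD8 389 was again highest.

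The reads of Alas2 over those of Alad, a ratio that the size factors do not change, were 0.214 (95% counting interval 0.193 to 0.238) in CD4 395 and between 0.300 and 0.470 in the others. Over the 6 libraries the ratio spanned 2.19-fold.

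Iron uptake and mitochondrial carriers followed the same libraries at the upper end. Tfrc, the transferrin receptor, which other dividing cells also use, had 8871, 3314 and 6655 normalised reads in CD4 385, 393 and 395, and 13737, 4937 and 7460.3 in CD8 389, 395 and 387. Slc25a37, the iron carrier mitoferrin 1, had 4460.0, 2070.4 and 2135 in the CD4 libraries and 5621, 2064 and 2738 in the CD8 libraries, in the same order. It was the only one of the 36 genes to be lowest in CD8 395, at 2064 against 2070.4 in CD4 393. Slc25a38, which brings glycine into the mitochondrion, spanned a ratio of 2.34, and Tspo2, an erythroid relative of the mitochondrial translocator protein, 2.48. CD8 389 was highest and CD4 393 lowest for Tfrc, Slc25a38 and Tspo2, and the groups overlapped for all 4 genes.

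The 12 red cell membrane genes had the widest spread of the role groups, with a median ratio of highest to lowest of 3.69, beside 2.77 for the heme enzymes and 3.24 for the globins. Aqp1, the water channel of red cells and of some vessel walls, had 13449, 5158 and 9514 normalised reads in CD4 385, 393 and 395, and 17357, 8630.0 and 10073 in CD8 389, 395 and 387. Ermap, a receptor-like protein of the erythroid membrane, had 9870.2, 3921 and 7966 in the CD4 libraries and 14772, 6050.1 and 7864 in the CD8 libraries, in the same order. CD8 389 was highest for all 12 genes and CD4 385 second for all 12. Rhag, the ammonium channel that anchors the Rh complex, had 3095, 977 and 2059 in the CD4 libraries and 4905, 1941 and 2223 in the CD8 libraries, in the same order. Epb42, which ties the anion exchanger to the skeleton, had 1293, 408 and 624 in the CD4 libraries and 1830.1, 719 and 879 in the CD8 libraries, in the same order. Their levels in CD8 389 were 5.02 and 4.49 times those in CD4 393. Rhd, the Rh antigen, Kel, the Kell antigen, and Add2, the beta chain of adducin, had ratios of 3.61, 3.61 and 3.62, and the skeleton genes Ank1 and Sptb, for ankyrin and the beta chain of spectrin, 4.07 and 4.31.

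Slc4a1, the anion exchanger of the red cell, differed from the other membrane genes in the CD4 395 library. It had 9127, 3297 and 3173 normalised reads in CD4 385, 393 and 395, and 13099.6, 3937 and 4928 in CD8 389, 395 and 387. CD4 395 was just below CD4 393, whereas Aqp1 in CD4 395 was well above it. Epb41, a skeleton protein that other cells also make, had 4399, 2697 and 3551 in the CD4 libraries and 4919.5, 2987 and 3857 in the CD8 libraries, in the same order, with a ratio of 1.82, and Gypc, glycophorin C, had a ratio of 2.35. Add1, the alpha chain of adducin that is made in many cells, ran only from 4642 in CD4 393 to 5372 in CD4 395.

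**Figure D2:**
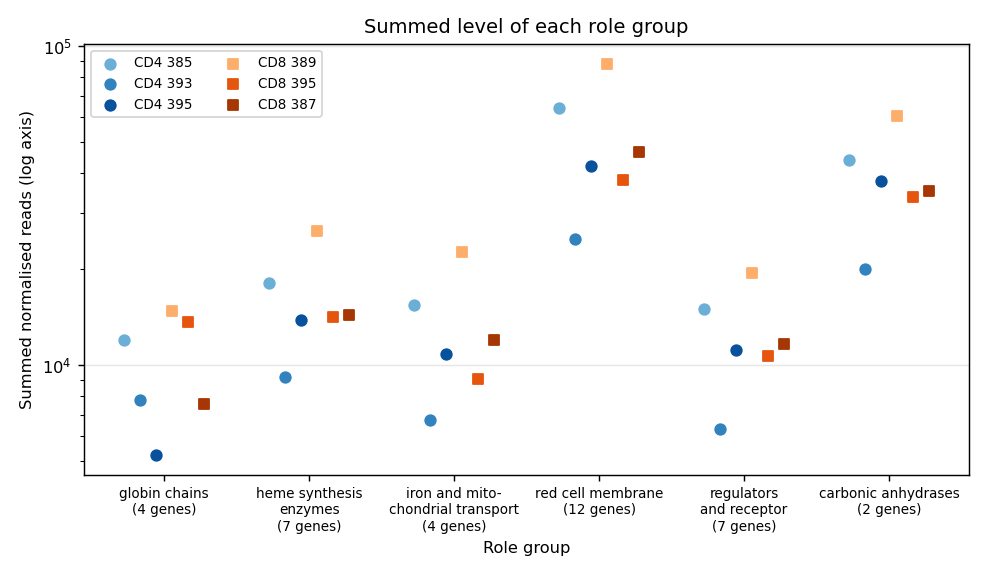
Summed normalised reads of each role group (horizontal axis, with its number of genes) in each library, on a log axis; circles are CD4 and squares CD8 libraries. CD8 389 is highest in all 6 role groups, CD4 393 is lowest in all but the globins, and CD8 395 is near CD8 389 for the globins alone.

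The transcription factors and the receptor of erythroid cells were also at high levels. Klf1, the factor that activates adult beta globin, had 2881, 1117 and 2298 normalised reads in CD4 385, 393 and 395, and 3409.5, 2255 and 2334 in CD8 389, 395 and 387. Tal1, a partner of GATA1, had 3549, 1439 and 2572 in the CD4 libraries and 4575, 2142 and 2733 in the CD8 libraries, in the same order. Hemgn, an erythroid nuclear protein, had 3008, 962 and 1649 in the CD4 libraries and 4330.1, 1720.0 and 2051 in the CD8 libraries, in the same order. For these 3 genes CD8 389 was highest and CD4 393 lowest, and Hemgn had the second widest range of the 36 genes, 4.50. Gata1 spanned a ratio of 2.69, Epor, the erythropoietin receptor, 2.25, and Trim10, a RING finger protein of erythroid maturation, 3.86. Nfe2, a factor that megakaryocytes share, had 841, 509 and 761 in the CD4 libraries and 973, 705 and 655 in the CD8 libraries, in the same order. Its range was narrow, 1.91.

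The carbonic anhydrases, which convert carbon dioxide and bicarbonate, had the highest mean normalised reads of the 36 genes as counted. Car1 had 19341, 11018 and 20352 normalised reads in CD4 385, 393 and 395, and 23650.1, 16967 and 16048 in CD8 389, 395 and 387. Car2, which macrophages and other cells also make, had 24816, 8981 and 17345 in the CD4 libraries and 36719, 16840.4 and 19228 in the CD8 libraries, in the same order. The ratio of highest to lowest was 2.15 for Car1 and 4.09 for Car2, with CD8 389 highest and CD4 393 lowest for both. Per kilobase of annotated exon (the union of all exons of a gene in GENCODE M21), Car1 had a mean of 14339.9 ± 3452 normalised reads per kilobase (SD, n = 6), Car2 8528 ± 3869.7, Hbb-bs 5843 ± 2149 and Hba-a1 4468 ± 1864. Car1 was first per kilobase in each of the 6 libraries, above both globins. The order of Car2 and Hbb-bs differed between libraries: Hbb-bs was above Car2 in CD4 393 and CD8 395 and below it in the other 4. The union of exons counts rarely used exons, which lowers values per kilobase. Both globins also share most of their sequence with a second copy. If reads that match both copies were left out of the counts, the globin values are too low. The rank of Car1 and Car2 against the globins therefore holds for reads as counted.

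The globins, Alas2 and Slc4a1 separated from the other genes in CD4 395; this set of 6 was chosen after its values were seen, and its place in CD4 395 is a description. The median of log2(level over the gene's mean) in CD4 395 was -1.02 for the globins and -0.23, -0.14, -0.25, -0.09 and -0.03 for the heme enzymes, the transport genes, the membrane genes, the regulators and the carbonic anhydrases. In CD4 393 the order was the other way, -0.36 for the globins and -0.80, -0.63, -1.12, -0.98 and -0.95 for those 5 groups. Slc4a1 did not follow the globins in CD8 395. There it had 3937 normalised reads, below its mean of 6260, while the globins had a median of 0.42. Against Tfrc in the same library, a ratio that size factors do not change, Hbb-bs reads stood at 1.33 (95% counting interval 1.28 to 1.39) in CD8 395 and 1.06 (95% counting interval 1.01 to 1.12) in CD4 393, but at 0.369 (95% counting interval 0.351 to 0.387) in CD4 395. Alas2 over Tfrc was also highest in CD8 395 (0.199) and CD4 393 (0.192) and lowest in CD4 395 (0.0699). Slc4a1 over Tfrc was 0.477 in CD4 395 and between 0.661 and 1.03 in the others. The libraries labelled CD4 395 and CD8 395 therefore stood at opposite ends for Hbb-bs and Alas2 over Tfrc, although they share a number.

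**Figure D3:**
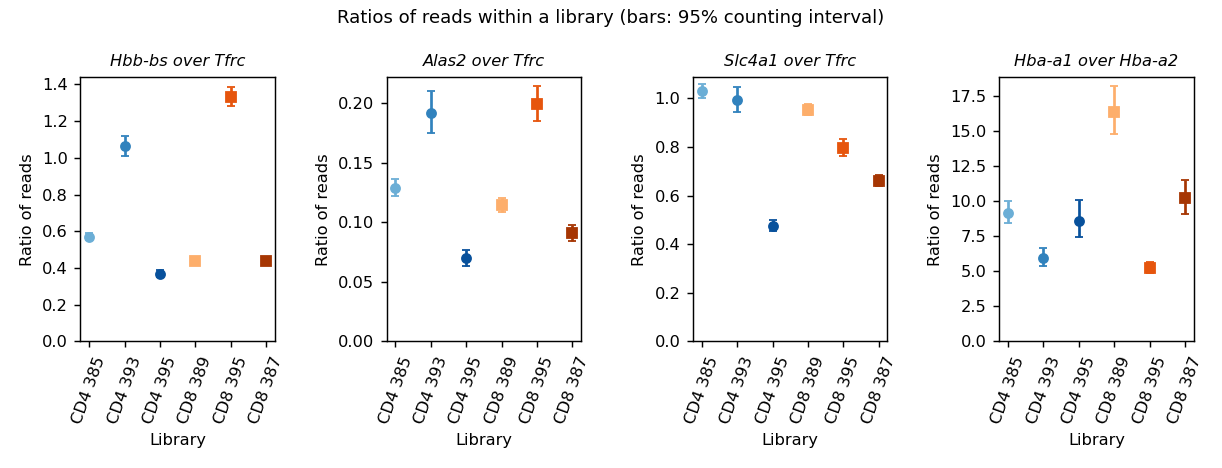
Ratio of the reads of 2 genes within each library (vertical axes from 0; circles CD4, squares CD8; bars are 95% counting intervals). The first 3 panels show CD4 395 lowest for Hbb-bs, Alas2 and Slc4a1 over Tfrc, and the last shows CD8 389 highest for Hba-a1 over Hba-a2.

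The bases before the start are shown for 4 genes of the set lowest in CD4 395, whose order across libraries differed from that of the rest, and for the 3 genes with the widest range between libraries. RefSeq promoters (GRCm38.p6) were at hand for 28 of the 36 genes, and the 150 bases before each start were read, on both strands, for a GATA motif (AGATAA or TGATAA) and for a KLF motif (CCNCNCCC). The GATA letters were found for 10 of the 28 genes (35.7%) and before 11.2% of the 27025 genes in the table, and the KLF letters for 14 (50%) and 40.9%. Both were found for 4 of the 28 genes (14.3%), Alas2, Uros, Epor and Hemgn, and for 2.76% of the genes in the table. Matches may overlap, and such a match is a description of the letters. Hba-a1 and Epb42 hold neither in this window, and the first set of sequences is of genes lowest in CD4 395, with either motif in capitals.
Hbb-bs, chr7:103827929-103828078, minus strand: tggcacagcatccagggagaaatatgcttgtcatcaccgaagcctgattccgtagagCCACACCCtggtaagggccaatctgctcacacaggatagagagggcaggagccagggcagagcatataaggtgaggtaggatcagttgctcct
Hbb-bt, chr7:103813924-103814073, minus strand: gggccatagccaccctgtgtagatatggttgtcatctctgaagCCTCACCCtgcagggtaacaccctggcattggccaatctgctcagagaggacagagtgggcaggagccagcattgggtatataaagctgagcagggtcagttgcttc
Hba-a1, chr11:32283522-32283671, plus strand: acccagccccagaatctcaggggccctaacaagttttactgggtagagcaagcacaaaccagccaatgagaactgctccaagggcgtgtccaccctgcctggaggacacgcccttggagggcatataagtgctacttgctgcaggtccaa
Alas2, chrX:150547267-150547416, plus strand: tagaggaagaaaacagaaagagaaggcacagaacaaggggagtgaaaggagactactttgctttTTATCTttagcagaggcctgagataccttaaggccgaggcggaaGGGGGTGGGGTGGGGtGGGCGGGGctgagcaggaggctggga
The next set is of the genes with the widest range, in which the capitals in Hemgn hold overlapping matches within 1 run of G.
Rhag, chr17:40810999-40811148, plus strand: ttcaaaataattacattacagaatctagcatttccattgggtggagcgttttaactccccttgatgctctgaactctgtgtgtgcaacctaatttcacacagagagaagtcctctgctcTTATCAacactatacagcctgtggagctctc
Hemgn, chr4:46404184-46404333, minus strand: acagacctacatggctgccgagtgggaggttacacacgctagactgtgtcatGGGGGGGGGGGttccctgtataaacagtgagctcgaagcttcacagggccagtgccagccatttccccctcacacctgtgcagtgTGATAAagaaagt
Epb42, chr2:121036878-121037027, minus strand: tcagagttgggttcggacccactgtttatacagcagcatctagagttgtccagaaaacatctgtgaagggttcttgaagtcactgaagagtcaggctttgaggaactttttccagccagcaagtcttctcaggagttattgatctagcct

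Between the CD8 and the CD4 libraries none of the 36 genes was called. Each log2 fold change gives the CD8 level over the CD4 level, computed as log2(normalised reads + 1). Limma tested all 13877 genes, and those with an adjusted p under 0.05 count as called. Of the genes tested, 0.49% were called, 0.281% higher in CD8 and 0.209% higher in CD4, so a count of 0 in 36 is near the background. At an unadjusted p under 0.05 there were 0 of the 36, against 5.82% of all genes; edgeR's quasi-likelihood test and DESeq2 also called 0, against 0.425% and 2.3% of all genes. The groups overlapped for each of the 36 genes, while 10.2% of all genes had groups that did not overlap, 4.93% with CD8 above and 5.28% with CD4 above.

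All 36 point estimates were above 0, as were 55.6% of those of all genes, and their median was 0.42 against 0.04 over all genes. Hba-a1 had 2903 ± 1337 in CD4 and 4354 ± 1536 in CD8 (SD, n = 3) and the highest estimate, 0.62 (SE 0.38), with a limma adjusted p of 0.946. Epb42 followed at 0.60 (SE 0.48) and Rhag at 0.59 (SE 0.48), with the same adjusted p, and the lowest was Epb41 at 0.14 (SE 0.25), with 3549 ± 851 in CD4 and 3921 ± 968 in CD8. Car2 had 17047 ± 7922 in CD4 and 24263 ± 10854 in CD8 and an estimate of 0.54 (SE 0.44), and Tfrc had 6280.0 ± 2797 in CD4 and 8711 ± 4532 in CD8 and 0.46 (SE 0.46). The SD within a group was large beside each of these differences.

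Leaving out CD8 389 or CD4 393 lowered most estimates. This direction was fixed in advance, since CD8 389 was highest for 34 of the 36 genes and CD4 393 lowest for 29. With CD8 389 left out, 31 of the 36 estimates stayed above 0 and their median was 0.13; with CD4 393 left out it was 30 and 0.13. Without both, an alternative chosen after seeing the data, only 6 stayed above 0, namely the 4 globins, Alas2 and Ppox, and the median was -0.20. In that fit Hbb-bs was at 0.40, Hba-a2 at 0.62 and Ank1 at -0.44. Without CD4 385 the median was 0.71, 4 genes had an unadjusted p under 0.05 and none was called, with a lowest limma adjusted p of 0.596.

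**Figure D4:**
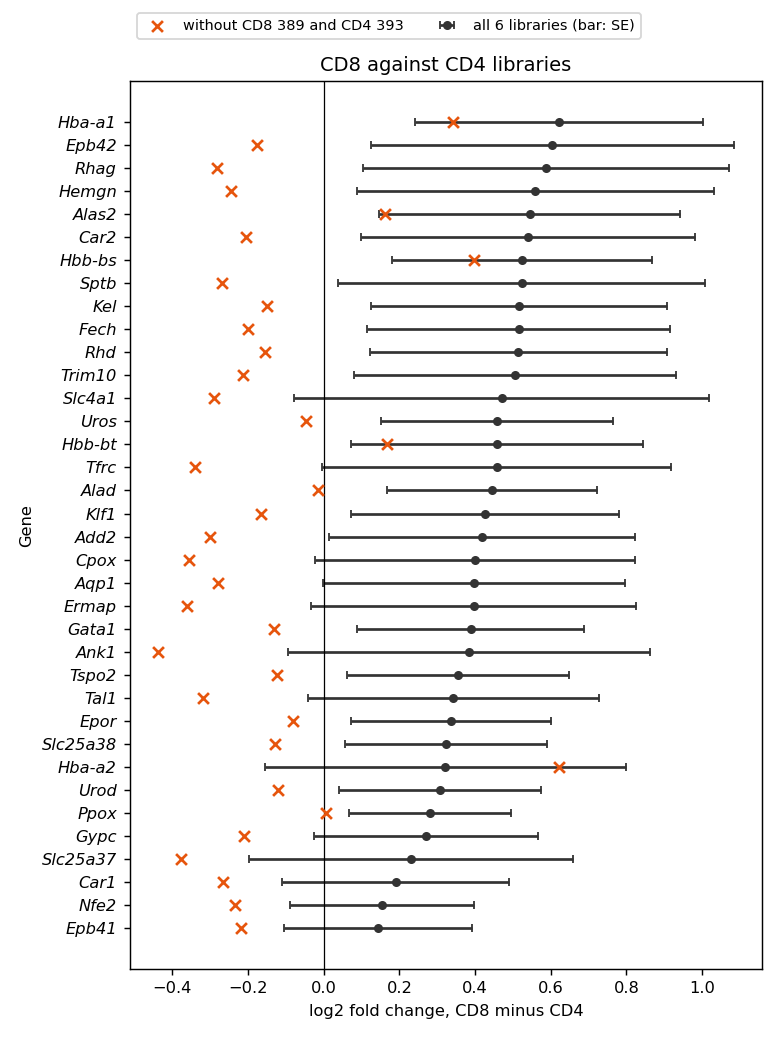
Log2 fold change, CD8 minus CD4, of each of the 36 genes over all 6 libraries (points, with SE bars) and without CD8 389 and CD4 393 (crosses). All points lie right of 0 and most crosses left of it, with the crosses of the 4 globins and Alas2 on the right and that of Ppox at 0.01.

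Markers of other cells moved across the same libraries. The 10 genes of proliferating cells, such as Mki67 and Top2a, summed to 44307, 23271 and 35377 in CD4 385, 393 and 395 and 75298, 35119.6 and 37104 in CD8 389, 395 and 387. All 10 were highest in CD8 389 and lowest in CD4 393, as most erythroid genes were. The 12 T cell genes summed to 24559, 48983 and 38736 in CD4 385, 393 and 395 and 10951, 38302 and 27274 in CD8 389, 395 and 387, and all 12 were highest in CD4 393 and lowest in CD8 389. The 9 markers of red pulp macrophages, the cells that hold erythroblasts and take up old red cells, summed to 28497, 27938 and 6095 in CD4 385, 393 and 395 and 8054, 20426 and 24145 in CD8 389, 395 and 387. They were lowest in CD4 395 and next lowest in CD8 389, so the macrophage markers were low both where the globins were lowest and where they were high. Their part in the results, and that of the proliferation and T cell genes, was not tested.

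Markers of megakaryocytes, which share Gata1, Tal1 and Nfe2 with erythroid cells, were read as well. The 9 found summed to between 435 in CD4 395 and 844 in CD8 389. How much of the Gata1, Tal1 and Nfe2 reads came from megakaryocytes was not tested. Pf4 reached 19.8 at most, Itga2b 211 and Vwf, the highest of the list, 334. Mast cell and basophil markers summed to between 250.1 in CD4 395 and 1149.7 in CD4 385. Cma1, the lowest of them, was at 0 in CD4 395, CD8 389 and CD8 395. In those libraries Mcpt8 was at 4.26, 183 and 34.9 and Cpa3 at 30.9, 155 and 32.5, in the same order. The neutrophil list spanned 431 in CD4 395 and 11215 in CD4 385. The B cell list ran from 62996 in CD8 389 to 120098 in CD8 395, and the plasma cell list from 10012 to 15439 in the same libraries.

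**Figure D5:**
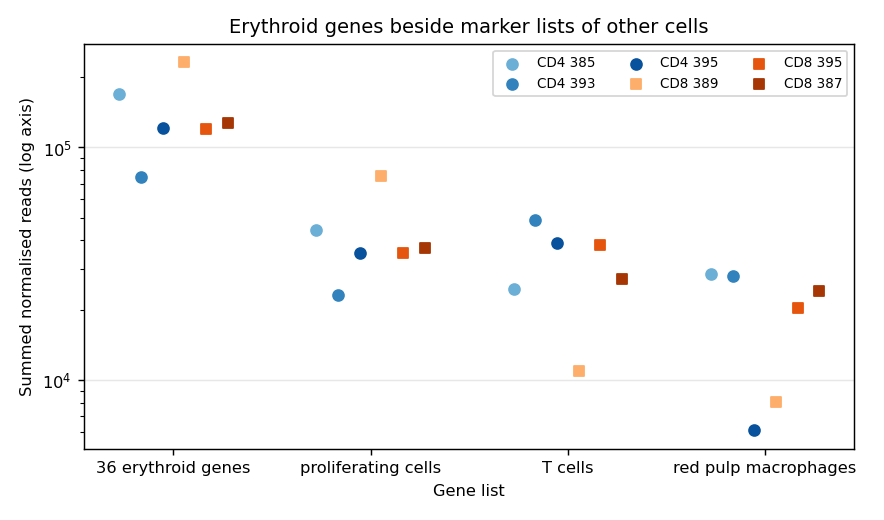
Summed normalised reads (log axis) of the 36 erythroid genes and of 3 marker lists in each library; circles are CD4 and squares CD8 libraries. The erythroid and proliferation sums share their highest and lowest libraries, CD8 389 and CD4 393, and the T cell sums have them in the opposite places.

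Other genes of red cell formation were read from 9 lists of 68 genes, of which 64 were tested; 0 were called higher in CD8 and 1 higher in CD4, beside 0.281% and 0.209% of all genes. Of the 64, 40 were highest in CD8 389 and 41 lowest in CD4 393, beside 30.4% and 28.7% of all genes. The 7 further genes of heme synthesis and transport had 0 called and 7 lowest in CD4 393, with Abcb10, a mitochondrial transporter of erythroid cells, at 2262 ± 1113 in CD4 and 3131 ± 1526 in CD8 (SD, n = 3). The 8 iron genes had 0 called, with the ferritin chains Fth1 at 12925 ± 3582 in CD4 and 16295 ± 2529.8 in CD8 and Ftl1 at 10221 ± 2605 in CD4 and 11300.3 ± 1393 in CD8. Of the 10 further membrane genes, 0 were called and 9 were lowest in CD4 393. Add1 and Slc29a1 at 2388 ± 641 in CD4 and 3000.4 ± 703 in CD8 were the most abundant of the list, Add1 with a log2 fold change of -0.02 (SE 0.15).

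In lists this short a count of 0 called is near the 0.49% of all genes called. Among the 10 transcription partners 0 were called and 8 were highest in CD8 389, while Ldb1, an adaptor of the GATA1 complex made in many cells, had 6605 ± 571 in CD4 and 5708 ± 384 in CD8, and Zfpm1, the GATA1 cofactor FOG1, had 2886 ± 865 in CD4 and 3355 ± 617 in CD8. The 5 early progenitor genes had 0 called and 1 highest in CD8 389: Kit, the stem cell factor receptor, had 2106, 1419.7 and 2266 in the CD4 libraries and 2519, 1751 and 2067 in the CD8 libraries, in the same order, and Myb 3806, 3323 and 4115 in the CD4 libraries and 3776, 3327 and 3280.0 in the CD8 libraries, in the same order. The ratio of highest to lowest was 1.77 for Kit, 1.25 for Myb and 1.93 for Gata2, but 5.50 for Csf2rb and 12.7 for Cd34, so the list was not steady across libraries. Cd34 and Csf2rb were lowest in CD4 395, at 18.1 and 129.8 normalised reads. Of the 10 genes of late maturation and clearance, 0 were called and 5 were highest in CD8 389, with the mitophagy receptor Bnip3l at 1384 ± 194 in CD4 and 1503 ± 275 in CD8, and Tent5c at 1437 ± 215 in CD4 and 1209.9 ± 202 in CD8. The 5 oxidant defence genes had 0 called and 5 lowest in CD4 393, with Prdx2 at 5825 ± 2063 in CD4 and 7492 ± 1988 in CD8 and Gpx1 at 5421 ± 1507 in CD4 and 6643 ± 794 in CD8. Whether the lists differ from each other was not tested.

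The embryonic alpha-like globin Hba-x had 0 to 6.97 normalised reads and was not tested, and the embryonic beta-like genes were not analysed here. The erythropoietin response list held 9 genes, and 1 of them, Cish, was called, with its higher level in CD4. Cish, a feedback inhibitor that cytokine receptors induce through STAT5 in erythroid cells and in T cells, had 390.4, 493 and 413 normalised reads in CD4 385, 393 and 395, and 90.7, 98.8 and 155 in CD8 389, 395 and 387. All CD4 libraries were above all CD8 libraries, with 432 ± 53.7 in CD4 and 115 ± 35.2 in CD8 (SD, n = 3), a log2 fold change of -1.94 (SE 0.25) and a limma adjusted p of 0.0270. Its adjusted p ran from 6.4e-09 to 0.188 over the alternatives, and it was not called when any 1 library was left out. Dropping a CD4 library gave adjusted p-values of 0.0784 (385), 0.137 (393) and 0.0756 (395), and dropping a CD8 library gave 0.0682 (389), 0.175 (395) and 0.0771 (387) in limma. Erfe, a hormone gene of erythroblasts, had 139.5, 71.3 and 112 in the CD4 libraries and 234, 105 and 105 in the CD8 libraries, in the same order. Erfe was highest in CD8 389 and lowest in CD4 393, and was chosen after its values were seen. Most of its list did not share that order. Of the 9 genes, 2 were highest in CD8 389 and 1 lowest in CD4 393, beside 30.4% and 28.7% of all genes. CD4 393 was the highest library for 5 of the 9, and CD8 389 the lowest for 4.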

How the data were processed

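Per the labels' protocols, Trizol RNA (500 ng each) of the sorted cells was made into TruSeq stranded mRNA libraries. The deposited values are a signal per gene, namely gene read counts that the authors divided by 1 size factor per library. STAR 2.7.5c, featureCounts 2.0, DESeq2 and GRCm39 stand in the submitters' processing notes, without roles, and no annotation or strand setting was found in the labels. Every deposited signal value was a whole multiple of 1 read (within 0.001 reads), so reads could be recovered. Libraries differed beyond sampling noise, with a chi-square per degree of freedom of 25.4 or more over all pairs and 40.2 or more between libraries of 1 group.

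Limma 3.58.1 (R 4.3.3) was fitted on log2(value + 1), with a trend of variance on mean level and two-sided tests. Genes needed 10 or more in 3 libraries, which left 13877, and p-values were adjusted by Benjamini-Hochberg over them. EdgeR 4.0.16 and DESeq2 1.42.0 ran on the recovered reads, and other pseudocounts, filters, scalings and left-out libraries were tried. Simulated CD8 against CD4 reads over 13609 genes gave 16.0% of 2-fold and 89.0% of 4-fold changes recovered by limma, with 9 false calls. Ratio intervals are exact binomial 95% intervals. Library values are printed for the 2 highest genes of each role group, the 3 widest and 3 narrowest ranges, and genes chosen after their values were seen; other lists show called genes, otherwise the 2 highest. Some genes of the lists are not reported here. The genes and lists were chosen with earlier results of these data known.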

Additional observations from a re-analysis of the deposited data

How the results depend on the processing

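The count of 0 called erythroid genes did not change under any alternative run. All 36 log2 fold changes stayed above 0 with pseudocounts of 0.5 and 5, no filter or a filter of 50, limma without a trend, scaling to total reads or by TMM, edgeR and DESeq2. Over the fits that leave out 1 library, between 30 and 36 stayed above 0; leaving out CD8 389 and CD4 393 together left 6. Over the fits without 1 library the range was -0.051 to 0.75 for Ank1, -0.041 to 0.32 for Epb41, -0.013 to 0.70 for Add2, -0.014 to 0.64 for Tal1, -0.062 to 0.30 for Nfe2, -0.093 to 0.35 for Car1, -0.15 to 0.66 for Hba-a2, -0.18 to 0.59 for Slc25a37 and -0.053 to 0.97 for Slc4a1; the cause was not tested. The count of all genes called, 68, was 104 with a pseudocount of 5, 42 with the filter of 50 (over 11115 genes), 319 by DESeq2, 18 without CD8 389 and CD4 393, and 7 to 46 when 1 library was left out. With 34 genes highest in CD8 389 under each scaling, 28 or 29 lowest in CD4 393 and a median ratio of 3.13 to 3.35, these counts moved little between scalings. Scaling to total reads moved the median of all genes from 0.04 to -0.02. No paired analysis was possible because the groups share only the number 395. With 3 libraries a group, and 16% of simulated 2-fold changes recovered, differences of that size between the groups would mostly go undetected. The changed genes were drawn at random and simulated independently of each other. The erythroid genes varied together and more widely, with a median ratio of 3.35 against 1.87 over all genes. Recovery for them was not simulated apart.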
